A study of Homo sapiens with 4 samples.

Results

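Loops over 200 kb and up to 500 kb are the chromatin loops called by Hi-C whose anchor starts lie more than 200 kb and at most 500 kb apart. They were chosen by size alone, and they numbered 21464 of the 77275 loops in the 4 loop lists together. MDA-MB-231 cells, an established human triple negative breast cancer cell line of genotype WT, were given either DMSO, the vehicle, or 75 nM THZ1, a covalent inhibitor of CDK7, for 48 h in complete RPMI medium. Arima-HiC was then done on crosslinked cells, with 2 libraries per condition, so that vehicle and THZ1 differ in the drug and share the line, the medium and the duration. The libraries are called technical replicates in the series' design text, so the spread between them, and every p-value below, may measure technical variation only. The lists hold contacts and no expression values, so the identity of the cells could not be checked against marker genes.

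A chromatin loop is a pair of distant sites, the anchors, that touch more often than the surrounding sequence. Many loops form when cohesin extrudes DNA until it meets CTCF bound in convergent orientation, so that a forward CTCF motif in the first anchor faces a reverse motif in the second. Loops often stand at the corners of contact domains, stretches of chromatin that contact themselves more than their neighbors, while other loops join promoters to enhancers or to other promoters. Condensin compacts chromosomes for mitosis, and CDK7 acts in both the cell cycle and transcription.

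CTCF matches at the strongest loops with a single match in each anchor are printed to show the convergent orientation, which few of these loops could be checked for. Of the 675 loops of this size that had identical anchors in all 4 lists, 35 had a match to the CTCF core consensus (12 letters, searched on both strands of GRCh37) once in each anchor, and 34 of these were convergent. The matches of the 4 strongest of those are given 5′ to 3′ on their own strand, with the 12 matched bases in capitals. They are forward (+) in the first anchor and reverse (-) in the second.
First anchor, chr13:25154662-25154681, +: caagCCAGTAGATGGCgcca
Second anchor, chr13:25542690-25542709, -: caagCCAGTAGATGGCgcca
First anchor, chr16:55499205-55499224, +: gtggCCACCAGATGGCgcag
Second anchor, chr16:55737498-55737517, -: aacaCCACCAGAGGGCacca
First anchor, chrX:100670661-100670680, +: ttagCCACTAGATGGCacca
Second anchor, chrX:101054464-101054483, -: ttgaCCAGCAGGTGGCaatt
First anchor, chr5:139167206-139167225, +: aacaCCAGCAGGTGGCgccc
Second anchor, chr5:139536884-139536903, -: aggtCCACCAGGTGGCgaca

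The chromosome 16 loop runs from an exon of MMP2, a secreted metalloproteinase gene, to an exon of SLC6A2, the norepinephrine transporter gene. The first anchor of the chromosome X loop holds the transcription start site (TSS) of ARMCX4. The anchors on chromosomes 13 and 5 overlap no protein-coding gene of GENCODE 44. The 2 printed sequences of the chromosome 13 loop are the same, and a comparison made after this was seen found that 17.1% of the 31-base words of its first anchor occur in the second on the opposite strand. Only 2 of the 675 loops shared over 10% of such words between their anchors, this one and the ZXDB to ZXDA loop on chromosome X with 22.0%, and both are among the 3 strongest of the 675. How reads were placed between the shared stretches was not tested, so the contacts of both loops are uncertain.

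The number of loops of this size was lower under THZ1 on average, but the libraries nearly met. The lists held 5312 and 6262 such loops under vehicle and 5256 and 4634 under THZ1, a mean of 5787 ± 672 against 4945 ± 440 (SD, n = 2), and the log2 ratio was -0.23. With 1 library left out the ratio lay between -0.34 and -0.10, the latter without vehicle replicate 2, and it was -0.14 without THZ1 replicate 2. The lower vehicle library and the higher THZ1 library differ by less than the replicates of either condition. With 4 libraries the exact two-sided permutation test cannot go below p = 0.33, and that was its value here. The same limit holds for every comparison between conditions below, in which p was 0.33 wherever the 2 conditions did not overlap. As a share of all loops of a library, loops of this size made up 25.6% and 25.9% under vehicle and 30.5% and 30.8% under THZ1, so they were a larger part of a shorter list. Among loops with 10 kb anchors alone the direction turned, at a mean of 34.9% under vehicle and 34.5% under THZ1, and the libraries overlapped (exact permutation p = 0.67). The ratio varied with size. The log2 ratio was -0.29 over 200 to 300 kb, -0.22 over 300 to 400 kb and -0.09 over 400 to 500 kb, and in the last of these the libraries of the conditions overlapped (exact permutation p = 0.667). Among the neighboring classes, loops over 90 to 200 kb had a log2 ratio of -0.52 and loops over 500 to 1000 kb one of 0.11. By the width of the anchors, loops with 5 kb anchors numbered 2408 and 3122 under vehicle and 2413 and 1995 under THZ1, which overlap. Those with 25 kb anchors overlap too, at 1159 and 1219 under vehicle and 1245 and 1168 under THZ1. Only loops with 10 kb anchors did not overlap between the conditions, at 1745 and 1921 under vehicle and 1598 and 1471 under THZ1.

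**Figure D1:**
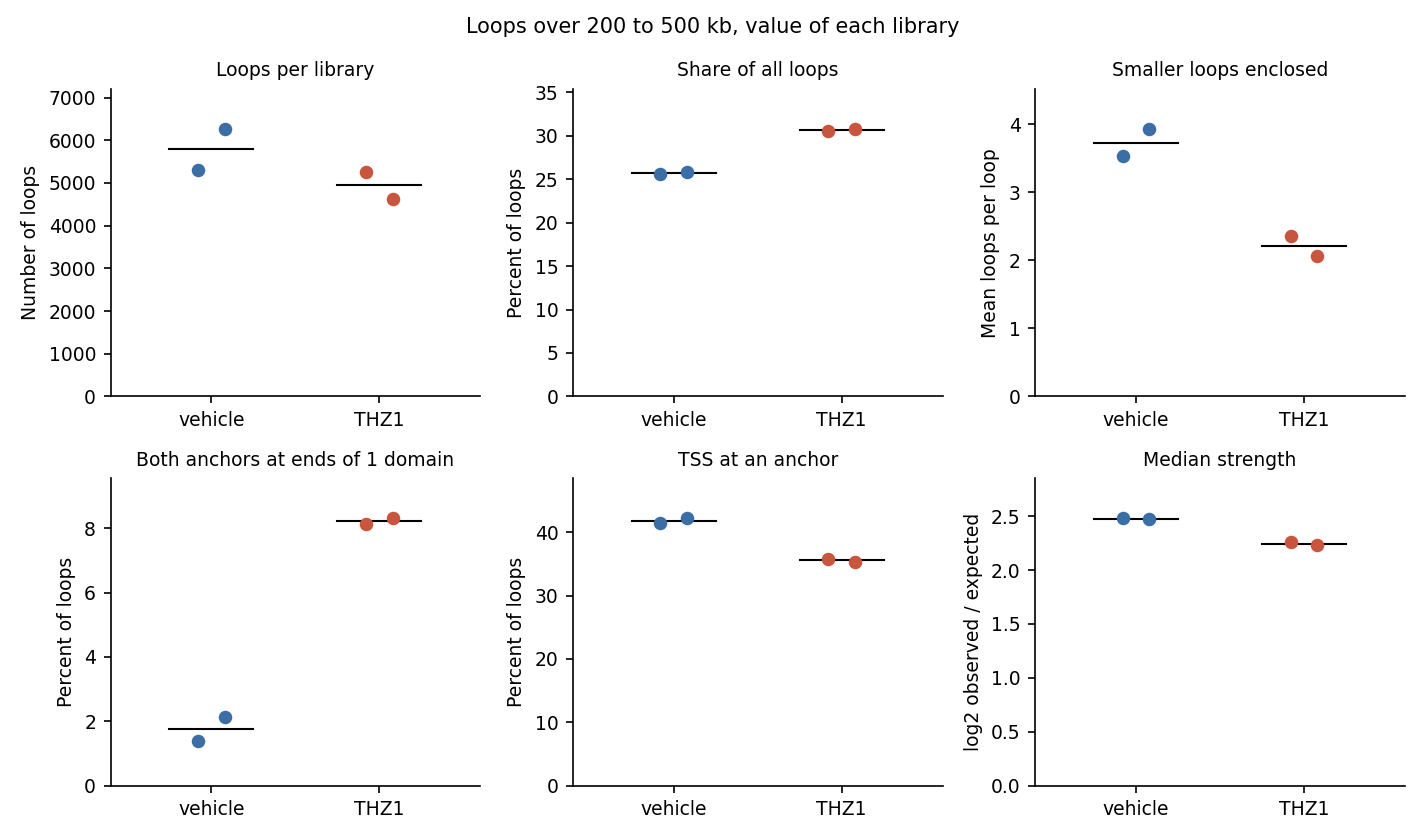
Each point is 1 library and each bar the mean of the 2 libraries of a condition, for 6 values of loops over 200 to 500 kb (number of loops, percent of all loops, mean number of smaller loops enclosed, percent with both anchors at the ends of 1 domain, percent with a TSS at an anchor, and median log2 strength). The 2 conditions do not overlap in any panel, and for the number of loops their nearest libraries stand at 5312 and 5256.

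Most of these loops were called in more than 1 library. Counting a loop as called elsewhere when both anchor midpoints lay within 20 kb, 48.8% and 41.4% of the vehicle loops and 49.7% and 56.0% of the THZ1 loops were called in all 4 lists. Replicates of vehicle matched for 72.3% of the loops of replicate 1 and 61.3% of those of replicate 2, and replicates of THZ1 for 66.6% and 75.4%. Between conditions, vehicle replicate 1 found 65.2% and 60.3% of its loops in THZ1 replicates 1 and 2, and vehicle replicate 2 found 59.6% and 54.6%. THZ1 replicate 1 found 65.8% and 70.9% of its loops in vehicle replicates 1 and 2, the latter above the share in its own replicate, and THZ1 replicate 2 found 69.3% and 73.6%. These shares also move with the number of loops in the list searched, and the part of that number was not tested. Loops found in both libraries of vehicle but none of THZ1 numbered 548, at their positions in vehicle replicate 1, and those of both THZ1 lists but none of vehicle numbered 286. The same was not counted over loops of every size, of which the vehicle lists held more, so these numbers are a description.

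Loops of this size held fewer smaller loops under THZ1. A smaller loop was counted as enclosed when it lay with both anchors inside the larger loop's span in the same library. The mean was 3.53 and 3.93 under vehicle and 2.36 and 2.06 under THZ1, 3.73 ± 0.284 against 2.21 ± 0.211 (SD, n = 2), a difference larger than the spread between replicates. The share of loops that enclosed no smaller loop was 17.3% and 14.6% under vehicle and 25% and 27.9% under THZ1. At the other end, 30.6% and 35.6% of vehicle loops and 16.3% and 12.3% of THZ1 loops enclosed 5 or more. Enclosed loops of 90 kb or less numbered 1.87 and 2.09 per loop under vehicle and 1.06 and 0.908 under THZ1, a ratio of THZ1 to vehicle means of 0.497. Enclosed loops over 90 kb numbered 1.65 and 1.84 under vehicle and 1.30 and 1.16 under THZ1, a ratio of 0.704. The neighboring classes also enclosed fewer under THZ1. For loops over 90 to 200 kb the means were 1.33 and 1.46 under vehicle and 0.845 and 0.737 under THZ1. For loops over 500 to 1000 kb they were 6.32 and 7.43 under vehicle and 4.55 and 4.0 under THZ1. The number of loops of every size that a list holds, 20768 and 24219 under vehicle and 17222 and 15066 under THZ1, moves with these values, and its part in them was not tested.

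**Figure D2:**
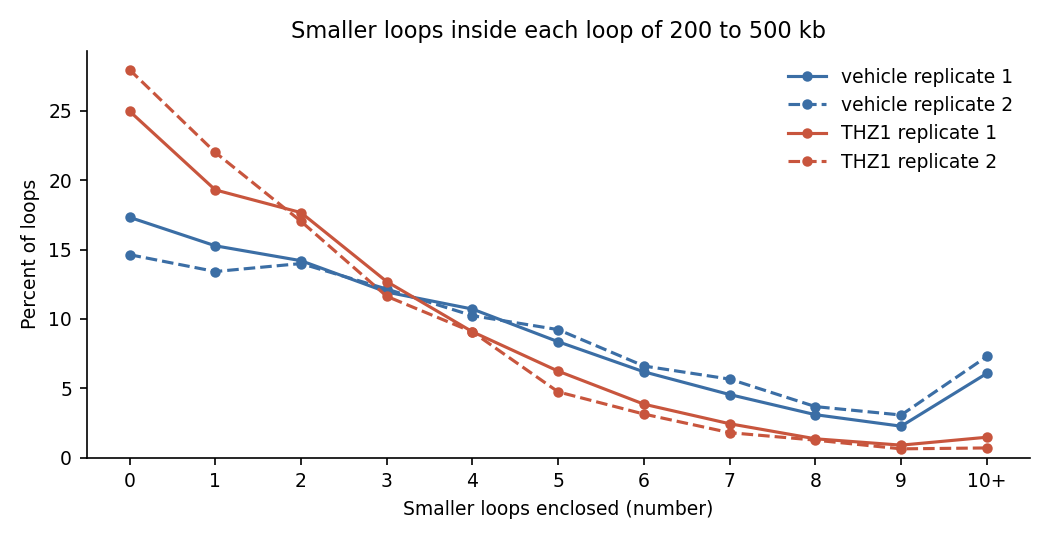
Percent of loops over 200 to 500 kb (vertical axis) by the number of smaller loops they enclosed (horizontal axis, 10+ for 10 or more), with 1 line per library. Both THZ1 lines lie above both vehicle lines at 0 enclosed loops (25% and 27.9% against 17.3% and 14.6%) and below them at 10 or more (1.48% and 0.712% against 6.08% and 7.30%).

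The same held over outer loops that were identical in all 4 lists, where the spans cannot differ. These 675 loops enclosed a mean of 3.56 and 4.08 smaller loops under vehicle and 2.46 and 2.10 under THZ1. The THZ1 mean was lower for 513 of them, higher for 38 and equal for 124. In 276 loops both THZ1 libraries had fewer enclosed loops than either vehicle library, and in 4 loops both had more. These are 40.9% and 0.593% of the 675, against 25.2% and 0.419% of all 2624 loops with identical anchors, of which the shorter ones have less room for a smaller loop. Smaller loops were enclosed under vehicle in both libraries and under THZ1 in neither for 35 loops, and the opposite held for 1. These 2 numbers were not counted over all 2624 loops and are given as a description. A smaller loop that shared an anchor with the larger one, within 20 kb, was present in 76.5% and 79.7% of all vehicle loops of this size and in 68.4% and 64.6% of THZ1 loops.

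The identical loops with the most enclosed loops show the range. The loop at chr9:97440001-97895000, with its second anchor in introns of AOPEP, an aminopeptidase gene, and FANCC, a gene of the Fanconi anemia DNA repair pathway, enclosed 19 and 18 loops under vehicle and 16 and 11 under THZ1. The loop at chr20:52195001-52560000, from an exon of ZNF217, a zinc finger gene amplified in breast cancer, to an exon of BCAS1, enclosed 19 and 22 under vehicle and 9 and 11 under THZ1. It was also at the ends of 1 domain in all 4 libraries. The loop at chr11:95655001-96125000 joins the TSS of MTMR2, a phosphoinositide phosphatase gene, to those of CCDC82 and JRKL, and it enclosed 18 and 21 loops under vehicle and 10 and 11 under THZ1. In all 3 the THZ1 libraries lay below the vehicle libraries. As these loops were chosen by the same count, this is given as a description.

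A larger share of these loops coincided with a contact domain under THZ1. A loop was taken to fit a domain when 1 domain of the same library, as Arrowhead called it on a 10 kb grid, started within 20 kb of the first anchor's midpoint and ended within 20 kb of the second's. This was so for 74 and 134 vehicle loops, or 1.39% and 2.14%, and for 428 and 385 THZ1 loops, or 8.14% and 8.31%. The means were 1.77% ± 0.528 and 8.23% ± 0.117 (SD, n = 2), and the difference was larger than the spread between replicates. At least 1 anchor lay at any domain boundary for 23.3% and 26.4% of vehicle loops and for 48.6% and 47.2% of THZ1 loops. The first anchor was at a domain start for 8.85% and 10.7% under vehicle and for 23.2% and 22.6% under THZ1, and the second at a domain end for 10.5% and 12.1% under vehicle and for 27.6% and 27.2% under THZ1. Both anchors lay within 1 domain for 16.4% and 15.8% of vehicle loops and 14.8% and 15.1% of THZ1 loops.

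The number of domains moved with this fit. Domains of 200 to 500 kb amounted to 162 and 262 under vehicle and 914 and 816 under THZ1. Of these domains, 48.1% and 51.5% under vehicle and 47.0% and 46.1% under THZ1 had a loop of any size at their corner. The share of such domains with a loop was thus slightly lower under THZ1 while the number was higher. With the 1198 highest-scoring domains of each library, the fit was 1.39% and 2.14% under vehicle and 6.60% and 7.06% under THZ1. Of those equal numbers, 162 and 261 vehicle domains and 638 and 609 THZ1 domains were of 200 to 500 kb, so the size of the domains still differed. Among the 675 identical loops the fit was 4.44% and 7.26% under vehicle and 20.0% and 19.3% under THZ1. Of these, 57 fitted a domain in both lists of THZ1 but none of vehicle (8.44%, against 4.04% of all 2624 loops with identical anchors), 1 did the opposite (0.148%, against 0.267%), 16 fitted in all 4 and 491 in none.

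**Figure D3:**
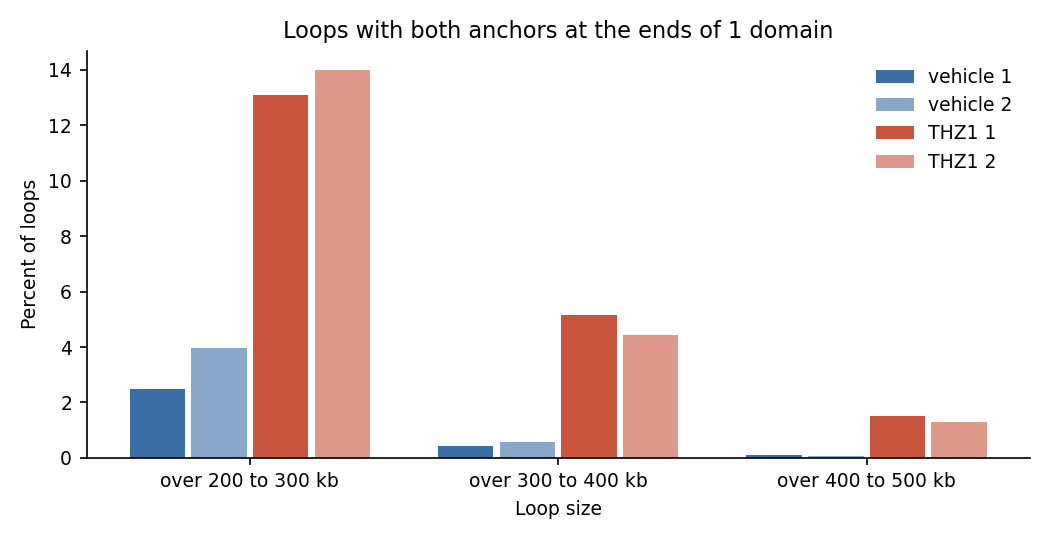
Percent of loops with both anchors at the ends of 1 domain (vertical axis), for 3 size ranges (horizontal axis), with 1 bar per library (blue, vehicle; red, THZ1; pale bars, replicate 2). The THZ1 bars are higher in each range, from 13.1% and 14.0% over 200 to 300 kb down to 1.51% and 1.31% over 400 to 500 kb, and the vehicle bars go from 2.48% and 3.96% to 0.0981% and 0.0807%.

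Loops of this size differed from the shorter neighboring class in ways that the 4 libraries shared, and less uniformly from the longer class. Against loops over 90 to 200 kb, the domain fit differed by -3.88 and -3.59 percentage points under vehicle and by -4.25 and -4.88 under THZ1, and the share with a TSS at an anchor by a mean of -4.18 percentage points. Median strength, as log2 of observed over expected contacts, was higher than in that class by 0.16 on average. All 4 libraries had the same sign in each of these, for which the exact two-sided sign-flip test over libraries gave its smallest possible p, 0.13. Against loops over 500 to 1000 kb, the domain fit differed by -3.42 and -2.12 percentage points under vehicle and by 3.63 and 3.62 under THZ1, so the class with the better fit changed with the condition. The exact permutation test of that change gave p = 0.33. Differences in median strength from that class had both signs, from -0.06 to 0.02 (exact sign-flip p = 0.375).

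Genes stood at the anchors of fewer of these loops under THZ1. The TSS of a protein-coding gene lay within an anchor of 41.4% and 42.2% of vehicle loops and of 35.8% and 35.2% of THZ1 loops, 41.8% ± 0.524 against 35.5% ± 0.414 (SD, n = 2), a difference larger than the spread between replicates. A TSS at both anchors was present in 11.6% and 11.7% under vehicle and in 9.0% and 8.72% under THZ1. In numbers, loops with a TSS at both anchors went from 615 and 733 to 473 and 404, a ratio of means of 0.651, and those with a TSS at 1 anchor from 1586 and 1908 to 1410 and 1229, a ratio of 0.755. Loops without a TSS went from 3111 and 3621 to 3373 and 3001, a ratio of 0.947, and their libraries overlapped between conditions (exact permutation p = 0.667). Loops with a TSS also enclosed more smaller loops than those without, by 0.589 and 0.552 per loop under vehicle and by 0.438 and 0.432 under THZ1. The share with a TSS at an anchor was lower under THZ1 in the neighboring classes too. Over 90 to 200 kb it was 44.8% and 45.5% under vehicle and 40.2% and 40.9% under THZ1. Over 500 to 1000 kb it was 38.6% and 40.1% under vehicle and 33.9% and 33.4% under THZ1.

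The genes with a TSS at such an anchor numbered 2798 and 3193 under vehicle and 2421 and 2102 under THZ1, of 20090. Of these, 856 were at an anchor in all 4 libraries, 425 in both libraries of vehicle but none of THZ1, and 129 in both of THZ1 but none of vehicle. Of the loops called in vehicle libraries only, 52.9% had a TSS at an anchor, against 30.4% of those called in THZ1 libraries only and 31.6% of those called in all 4 (vehicle replicate 1 positions). As the first 2 groups were defined by presence in the lists, these shares are given as a description. The groups also differed in anchor width, and wider anchors hold more sequence. Anchors of 25 kb belonged to 150 of 548 loops in vehicle only, 116 of 286 in THZ1 only and 288 of 2591 in all 4. The part of anchor width in these shares was not tested.

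Genes of the study's processes were set beside all protein-coding genes, of which 4.26% had a TSS at an anchor in every library. Of 8 condensin genes, 1 did, NCAPG, a non-SMC subunit of condensin I, and of 15 cohesin and CTCF genes, 2 did, STAG1, a cohesin subunit, and PDS5A, a regulator of cohesin release. Of 12 genes of the CDK7 complex and transcription kinases, 1 did, CDK13, a kinase of the RNA polymerase II tail. In that list POLR2A, the largest RNA polymerase II subunit, was at an anchor in both libraries of vehicle but none of THZ1, and CCNH, the cyclin partner of CDK7, the reverse. Over all protein-coding genes, 2.12% were in the first of these groups and 0.642% in the second. CDK7 itself had a TSS at an anchor in vehicle replicate 1 alone. Of 13 AP-1 genes, 1 had a TSS at an anchor in every library, FOSL2.

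Of 17 YAP and TEAD genes, 4 were at an anchor in all 4 libraries, namely YAP1, the coactivator of the Hippo pathway, TEAD1, its DNA-binding partner, and the targets CCN2 and F3, and TEAD2 was there under vehicle only. Of 26 genes of the epithelial-mesenchymal transition, 5 were in all 4, namely ZEB1 and SNAI2, transcription factors that repress epithelial genes, THBS1, CAV1 and EGFR, the epidermal growth factor receptor gene. Another 4, SNAI1, CD44, TGFBR2 and MET, had a TSS at an anchor in both libraries of vehicle but none of THZ1. In comparison, 4.26% of all protein-coding genes were at an anchor in all 4 libraries and 2.12% in both libraries of vehicle but none of THZ1, and no test was made on these lists.

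THBS1, which encodes an adhesive matrix protein, took part in 5 and 3 such loops under vehicle and 3 and 3 under THZ1. AXIN2, a feedback inhibitor of Wnt signaling, had 4 and 3 under vehicle and 4 and 3 under THZ1. THBD, the thrombomodulin gene, had 5 and 4 under vehicle and 3 and 4 under THZ1. H2BC6, a histone H2B gene, had 4 and 5 under vehicle and 1 and 1 under THZ1, the widest gap of these 4. These 4 genes were chosen after their values were seen.

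CTCF matches were mostly convergent in each of the 4 libraries. A forward match was in the first anchor of 14.9% and 14.6% of vehicle loops and 17.8% and 18.2% of THZ1 loops, and a reverse match there in 3.11% and 2.95% under vehicle and 3.44% and 3.56% under THZ1. A reverse match was in the second anchor of 15.7% and 14.2% under vehicle and 17.8% and 18.7% under THZ1. For comparison, 0.955% of all 5 kb bins of the genome hold a forward match, against 13.8% and 13.4% of the first anchors of that width under vehicle and 18.3% and 18.6% under THZ1. Where each anchor held 1 match, 144 of 195 and 159 of 219 vehicle loops were convergent, as were 175 of 229 and 164 of 214 THZ1 loops, and 6, 2, 4 and 3 were divergent.

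**Figure D4:**
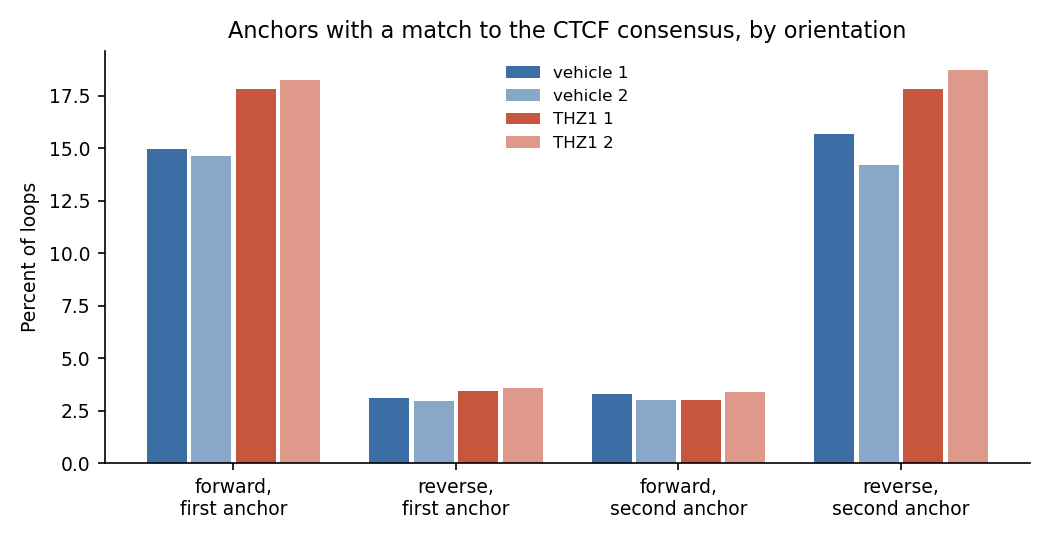
Percent of loops over 200 to 500 kb (vertical axis) with a forward or reverse CTCF consensus match in the first or second anchor (horizontal axis), with 1 bar per library (blue, vehicle; red, THZ1; pale bars, replicate 2). Forward matches in the first anchor and reverse matches in the second lie between 14.2% and 18.7%, and the other orientations between 2.95% and 3.56%.

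Loops with a convergent pair numbered 165 and 180 under vehicle and 198 and 187 under THZ1, a ratio of means of 1.12. Loops without any match in either anchor went from 3619 and 4388 to 3363 and 2895, a ratio of 0.782. The loops called in vehicle only held a match in both anchors in 12 of 548 (2.19%), and those called in THZ1 only in 24 of 286 (8.39%). The share was 5.25% among those called in all 4 (vehicle replicate 1 positions), and over all loops of this size it was 4.2% and 3.99% under vehicle and 4.93% and 5.31% under THZ1. Anchors of 25 kb, which are wider and hold more sequence, belonged to 150 of the 548 and 116 of the 286, and their part in this difference was not tested. A match is a description of sequence and not of CTCF binding, which was not measured.

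Loops of this size stood out less from their surroundings under THZ1. Strength was taken as log2 of the observed contacts over those expected from the donut of pixels around the loop. Its median was 2.48 and 2.47 under vehicle and 2.26 and 2.23 under THZ1, that is, 5.58 and 5.56 times the expectation against 4.78 and 4.69 times, and the difference was larger than the spread between replicates. Both parts of the ratio were higher under THZ1, as the median of observed contacts was 23 and 23 under vehicle and 29 and 29 under THZ1, and that of expected contacts 3.79 and 3.86 under vehicle and 5.35 and 5.55 under THZ1. These medians come from different lists of loops and are not scaled for the depth of each library, which the lists do not hold. Over the 675 identical loops, the median of observed contacts was 28 and 33 under vehicle and 34 and 31 under THZ1, which overlap (exact permutation p = 0.67), and that of expected contacts was 2.65 and 3.0 under vehicle and 4.04 and 3.78 under THZ1. Loops at the ends of a domain were stronger than the others by 0.58 and 0.45 under vehicle and by 0.59 and 0.50 under THZ1. Loops with a TSS were weaker than those without by a margin that was wider under THZ1, with differences of -0.32 and -0.32 under vehicle and -0.48 and -0.49 under THZ1. Median strength was also lower under THZ1 in the neighboring classes. Over 90 to 200 kb it was 2.31 and 2.33 under vehicle and 2.10 and 2.08 under THZ1. Over 500 to 1000 kb it was 2.54 and 2.52 under vehicle and 2.28 and 2.21 under THZ1.

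Loop by loop, strength was tested over the 2623 loops of every size with identical anchors in all 4 lists and an expectation above 0, of which 675 were over 200 to 500 kb. The edgeR quasi-likelihood test, with the expectation as offset and Benjamini-Hochberg adjustment, called 120 of the 675 weaker under THZ1 (17.8%) and 0 stronger at an adjusted p under 0.05, with 206 at an unadjusted p under 0.05 in either direction. Over all 2623 loops, 24.7% were called weaker and 0.0762% stronger, so the share among loops of this size was below that background. The neighboring classes were below it too. Over 90 to 200 kb 21.1% of 769 loops were called weaker, with a median log2 change of -0.38. Over 500 to 1000 kb it was 16.7% of 204 loops, with a median of -0.36. The median log2 change over the 675 was -0.35, against -0.41 over all loops tested, and 610 of the 675 values were negative (90.4%), against 92.8% over all loops tested. By anchor width, 119 of 600 loops with 5 kb anchors were called weaker, 1 of 32 with 10 kb and 0 of 43 with 25 kb. Their median log2 changes were -0.39, -0.26 and -0.097. The split by anchor width was not made over all loops tested, so it is given as a description. In 413 loops (61.2%) both THZ1 libraries lay below both vehicle libraries, and in 8 loops above (1.2%), against 68.7% and 1.18% over all loops tested, so the share lying below was smaller than that background.

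The calls depended on the setting. With any 1 of the 4 libraries left out, edgeR called 0 of the 675, although 129 to 161 had an unadjusted p under 0.05 and the median stayed between -0.39 and -0.34. Such a fit has a single library in 1 condition, which is assumed to vary like the 2 of the other, so its loss of calls says little about stability. With an expectation above 0.01 required in every library, a limit chosen after the values were seen, 130 were called with all libraries, 39 without vehicle replicate 1 and 0 without each of the others. DESeq2 called 1 of the 166 loops for which it gave an adjusted p, and 0 of 2572 loops matched within 20 kb were called, with 461 at an unadjusted p under 0.05 in edgeR. Over loops of every size, the 0.01 limit with all libraries called 720 of 2620 weaker and 1 stronger. DESeq2 called 17 of 843 weaker and 1 stronger, and matching within 20 kb called 1 of 8517 weaker and 0 stronger. Observed contacts alone, scaled by TMM without an expectation, gave 9 loops lower (1.33%) and 32 higher (4.74%) under THZ1, against a background of 4.35% lower and 2.78% higher over all loops. The median was 0.14 over the 675 and -0.0047 over all loops tested. TMM centers the loops tested near 0, so these values are relative to the other loops and their sign cannot be set against that of the strength. In simulated counts the same test recovered 77 of 100 loops changed 2-fold and 15 of 100 changed 1.5-fold, and 10 of its 102 calls were false, above the nominal rate.

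**Figure D5:**
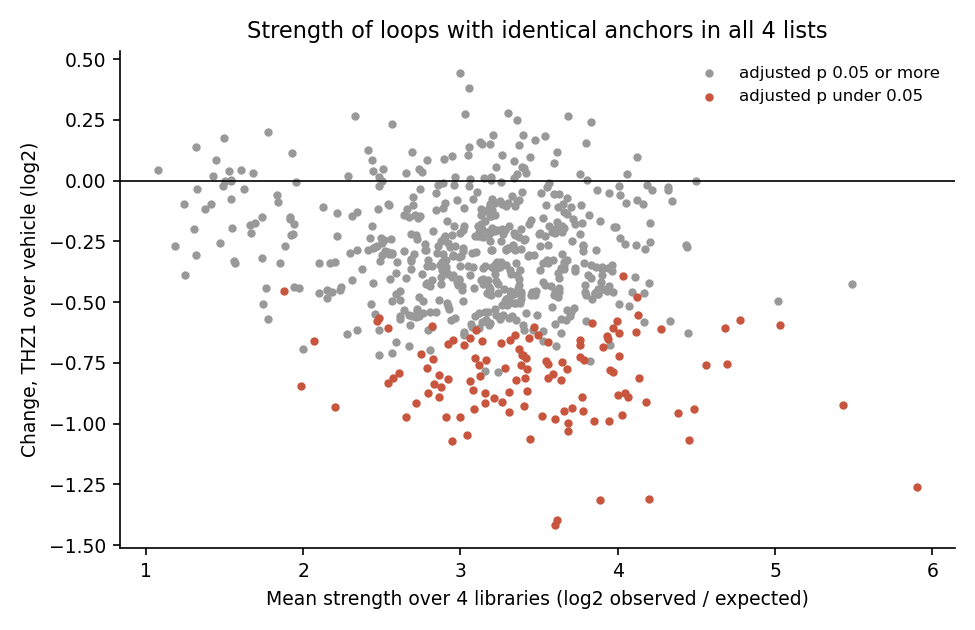
Each point is 1 of the 675 loops over 200 to 500 kb with identical anchors in all 4 lists, by mean strength (horizontal axis, log2 observed over expected contacts) and fitted change (vertical axis, log2 of THZ1 over vehicle, edgeR with the expectation as offset). The 120 loops in red had an adjusted p under 0.05 and all lie below 0, and the lowest value is -1.42.

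The called loops with the largest decreases were led by chr5:150825001-151125000, between exons of SLC36A1, an amino acid transporter gene, and ATOX1, a copper chaperone gene. It had 47 and 55 observed contacts under vehicle and 26 and 22 under THZ1, against expectations of 2.56 and 2.57 under vehicle and 3.47 and 3.0 under THZ1. The log2 change was -1.42 ± 0.214 (SE from the F statistic; edgeR adjusted p = 0.00321), and here contacts were lower and the expectation higher.

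The loop at chr7:76750001-76965000, from the TSS of CCDC146 to an exon of GSAP, had 18 and 24 contacts under vehicle and 18 and 19 under THZ1. Its expectation was 0.917 and 0.875 under vehicle and 1.75 and 2.19 under THZ1, and its log2 change was -1.31 ± 0.258. The loop at chr7:86555001-86870000, whose first anchor overlaps an exon of ELAPOR2, had 27 and 31 contacts under vehicle and 24 and 20 under THZ1, a log2 change of -1.31 ± 0.253. Others among the 6 with the largest decrease were chr1:222340001-222630000, which has no protein-coding gene at its anchors and a log2 change of -1.07 ± 0.246, and the chromosome 13 loop whose anchors share a stretch of sequence, at -1.26 ± 0.278.

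The strongest of the 675 loops by mean strength was that chromosome 13 loop, at chr13:25150001-25545000, with strengths of 6.86 and 6.20 under vehicle and 5.51 and 5.02 under THZ1. The loop at chr6:163915001-164215000, from an intron of QKI, an RNA-binding protein gene, reached 5.47 and 5.90 under vehicle and 5.48 and 5.09 under THZ1, so its libraries overlapped (edgeR adjusted p = 0.278). The loop between the zinc finger genes ZXDB and ZXDA, at chrX:57615001-57940000, reached 5.80 and 6.02 under vehicle and 5.27 and 4.64 under THZ1. The MMP2 to SLC6A2 loop, at chr16:55495001-55740000, reached 5.16 and 5.49 under vehicle and 4.66 and 4.84 under THZ1, a log2 change of -0.59 ± 0.202 (edgeR adjusted p = 0.0452). Their high ratios rest on expectations of at most 1.98 contacts.

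Of the genes in the lists, 6 had a TSS at a loop of the 675, as did 253 of all 20090 protein-coding genes. The NCAPG loop, at chr4:17810001-18025000, holds the TSS of NCAPG and DCAF16 in the first anchor and of LCORL in the second. It had 16 and 33 contacts under vehicle and 23 and 21 under THZ1, and strengths of 2.67 and 3.71 under vehicle and 2.42 and 2.38 under THZ1. Its log2 change was -0.87 ± 0.300 (edgeR adjusted p = 0.0463), and the vehicle libraries differed from each other by more than vehicle replicate 1 did from THZ1. The STAG1 loop, at chr3:136470001-136735000, had strengths of 3.76 and 3.91 under vehicle and 3.48 and 3.56 under THZ1 (edgeR adjusted p = 0.281).

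The CAV1 loop, at chr7:115895001-116170000, joins an exon of TES to the TSS of CAV1, a gene of membrane caveolae. It had 93 and 117 contacts under vehicle and 93 and 83 under THZ1, strengths of 3.63 and 3.70 under vehicle and 2.93 and 2.86 under THZ1, and a log2 change of -0.77 ± 0.176 (edgeR adjusted p = 0.00987). It enclosed 13 and 11 smaller loops under vehicle and 4 and 4 under THZ1. The F3 loop, at chr1:95005001-95270000, starts at the tissue factor gene and had strengths of 2.67 and 2.86 under vehicle and 2.38 and 2.01 under THZ1, a log2 change of -0.57 ± 0.183 (edgeR adjusted p = 0.0375). The ZEB1 loop, at chr10:31320001-31610000, had 2.60 and 3.40 under vehicle and 2.82 and 2.74 under THZ1, so its libraries overlapped (edgeR adjusted p = 0.352). The EGFR loop, at chr7:54855001-55090000, had 2.80 and 2.55 under vehicle and 2.52 and 2.08 under THZ1 (edgeR adjusted p = 0.313), and it enclosed 4 and 3 loops under vehicle and 1 and 1 under THZ1.

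The strongest loops called in a single condition rested on few contacts. Among those called in vehicle only, the loop at chr17:65850001-66215000, from an exon of BPTF, a chromatin remodeler gene, to an intron of AMZ2, had 14 and 16 contacts, and that at chr7:128135001-128640000, from an exon of METTL2B to an exon of TNPO3, had 16 and 12. The loop at chr1:9685001-9930000, from the TSS of PIK3CD, a catalytic subunit of phosphoinositide 3-kinase, to an intron of CTNNBIP1, had 15 and 16. Among those called in THZ1 only, the loop within NEBL at chr10:21145001-21555000 had 14 and 18 contacts, the one from SLC38A10 to NPLOC4 at chr17:79225001-79570000 had 15 and 17, and the one from PAPPA2 to ASTN1 at chr1:176525001-176855000 had 14 and 14. A loop that was not called may still have contacts, since the lists hold only loops past the caller's thresholds.

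At the edges of the size range, 334 and 355 vehicle loops and 263 and 277 THZ1 loops were exactly 200 kb and so lay just outside, and 266 and 325 vehicle loops and 235 and 217 THZ1 loops were over 200 and up to 210 kb. At the upper end, 102 and 138 vehicle loops and 119 and 115 THZ1 loops were over 490 and up to 500 kb, and 66 and 69 under vehicle and 53 and 45 under THZ1 were over 500 and up to 510 kb.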

How the data were processed

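The authors made Arima-HiC libraries and processed the reads with Juicer 1.6 on hg19, per the submitters' processing notes, and the file headers name juicer_tools 1.19.02. For each loop the authors deposited the raw count of observed contacts, an expected signal from each of 4 neighborhoods in the unit of the counts, and a q-value for each, none above 0.0997 here. For each domain they deposited the corner score from Arrowhead. Deposited tables of loops unique to a condition hold the authors' own comparison and were not used, and no column belonged to another sample (0). Read depth per library is not in the lists. Sums of contacts at loops of this size were 154167 and 184722 under vehicle and 194382 and 171234 under THZ1 and move with the number of calls.

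Software was pandas 2.3.3, scipy 1.17.1, numpy 2.4.6 and matplotlib 3.10.9 in Python 3.11.15. Groups came from the sample labels. Per-library values were compared by exact two-sided permutation over 6 splits. Strength was tested with edgeR 4.0.16 in R 4.3.3 (glmQLFit on counts, log of the donut expectation as offset, adjusted p 0.05 over 2623 loops), with DESeq2 1.42.0 as an alternative. The SE is the absolute log2 change over the square root of F. Genes are protein-coding genes of GENCODE 44 on GRCh37. Counting of enclosed loops and domain fit was tested on simulated data, with 600 of 600 cases correct. Alternatives covered size, anchor width, q-values, tolerance, domains, genes, expectation, matching, the replicate block and each library left out.

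Loops named were, among identical loops, up to 6 called with the largest decrease and 3 with the largest increase in all 4 pairs of libraries, the 4 strongest, the 3 with most enclosed loops and those at listed genes, and the 3 strongest called in 1 condition only. Genes named are those with a TSS in an anchor, otherwise those that overlap it. A loop that this rule also names is not reported here. The size range, gene lists and tests were chosen with earlier results of these data known.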

Additional observations from a re-analysis of the deposited data

How the results depend on the processing

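Values per library kept their direction under the other settings tried, with these exceptions. With only 25 kb anchors the log2 ratio of the number of loops was 0.021, and with only 10 kb anchors the share of all loops differed by -0.386 percentage points. Without an expectation (TMM), 41 loops were called, 9 lower and 32 higher with THZ1, and the median log2 change was 0.14, but TMM centers all loops tested near 0 (median -0.0047), which by construction removes a change that all loops share. Loops matched within 20 kb gave 0 calls and DESeq2 gave 1, and without any 1 library the calls were 0 to 0. The difference in domain fit from loops over 500 to 1000 kb, 0.425 percentage points over the 4 libraries, was -0.642 without THZ1 replicate 1 and -0.639 without THZ1 replicate 2 (range -0.642 to 1.71 over single omissions). Fits with the bottom-left expectation called 106 of 675, with at least 20 contacts 111 of 468, and with a replicate block 141 of 675. Over all loops tested, these fits called 604 of 2619, 631 of 2114 and 749 of 2623 weaker, and 0, 2 and 2 stronger. Deviations of replicate 1 from its condition mean in strength showed no correlation between vehicle and THZ1 (Pearson's r = -0.0088 over 2623 loops, 2 pairs). With few contacts per loop, this cannot exclude a pairing of the libraries by replicate number. The causes of the changes between settings were not tested.

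After the results were seen, 4 lower limits on the expectation were tried (above 0, the one reported, then 1e-06, 0.01 and 0.1), because 3 longer loops, none of 200 to 500 kb, had expectations near 0. They gave 120, 130, 130 and 130 calls among the 675, and 648, 719, 720 and 718 weaker calls over all loops tested. Without vehicle replicate 1 they gave 0, 29, 39 and 39 calls, and without any other single library 0 in each. The median loop has 23 to 29 observed contacts, and the lists do not hold the read depth of each library.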
